A study of Mus musculus with 18 samples.

Results

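Dynactin is the multiprotein partner of cytoplasmic dynein, and the transcripts of its subunits were followed in cultured mouse sensory neurons by genotype and time. The members were the rows of the deposited gene table with the symbols Dctn1 to Dctn6, Actr1a, Actr1b and Actr10. All 9 were found among the 17198 genes of the table. They were chosen by name and role, not by their values, although earlier results of these data were known.

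Cytoplasmic dynein carries endosomes, organelles and survival signals along microtubules toward the cell body, which in a sensory neuron means from the axon tip to the ganglion. Dynactin is needed for that motor to move over long distances: a short filament of actin-related protein 1 (Arp1) docks on dynein together with a cargo adaptor, and a projecting shoulder carries the p150Glued arm that binds microtubules. Mutations of p150Glued in humans cause motor neuron disease and Perry syndrome.

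The RNA came from cultured neurons of the dorsal root ganglia (DRG), which hold the cell bodies that sense touch, pain and position. The wild-type (WT) cultures came from mice with the genotype Wild type, and the heterozygous (HET) cultures from Dynlrbtm1a/+ mice. Dynlrb1 encodes a light chain of dynein, and tm1a is a targeted knockout-first allele, so each HET animal keeps 1 unaltered copy in every cell. Cultures were collected at 12, 24 and 48 h, with 3 biological replicates for each of the 6 groups, 18 in all, and no agent is named for any group; strain, age and whether cultures shared animals are not given in the sources used here. The comparisons ask how the loss of 1 copy of a dynein light chain, and time in culture, go with the levels of the dynactin transcripts.

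Dynlrb1, the targeted gene, did not overlap between genotypes at any time, all HET cultures lying below the WT ones, at 0.563 times the WT level averaged over the times (log2 fold change -0.83, SE 0.071, limma adjusted p 2.85e-05). By time, Dynlrb1 had a limma adjusted p under 0.05 at 24 h (0.0390) but not at 12 h (0.0655) or 48 h (0.0501). The authors' deposited adjusted p-values were 1.48e-04 at 12 h, 1.25e-05 at 24 h and 1.12e-05 at 48 h. All 10 neuron markers were measured, none below a normalized count of 2330 in any culture. Markers of other cell types were measured too. Summed glial markers (8 of 8 measured) ranged from 36258 to 51628 in WT at 12 h and from 17692 to 21092 at 48 h, and from 36597 to 52267 and 18552 to 25265 in HET. Summed fibroblast, endothelial and macrophage markers (8 of 8) ranged from 9532 to 16880 and from 17444 to 27114 in WT, and from 8678 to 12711 and 15369 to 24101 in HET. Summed markers of dividing cells (4 of 4) ranged from 271 to 344 and from 1530 to 3497 in WT, and from 204 to 465 and 364 to 2331 in HET. The lowest single value was 14.9 among the glial markers, 18.3 among the fibroblast, endothelial and macrophage markers and 6.97 among the dividing-cell markers. The deposited signal holds no 0 for any gene, so a value above 0 does not by itself show a cell type. HET replicate 3 at 48 h stood apart on the first principal component, which held 43.5% of the variance. It lay at -15.5, the other HET cultures of 48 h at 45.8 and 27.4, and those of WT at 73.8, 85.6 and 43.9. The 24 h cultures of both genotypes ran from -10.35 to 16.9 and the 12 h cultures from -55.5 to -31.0. In these bulk samples fewer cells of a type and less RNA per cell cannot be told apart, and p-values measure only the spread between the deposited cultures. The part of cell composition in the time and genotype differences below was not tested.

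The level of each subunit was first compared per transcript length, in the authors' FPKM (fragments counted per unit of transcript length and of library size), over the 18 cultures. The lengths behind the FPKM are not given in the sources used here, and the order of the genes depends on them. Dctn2 encodes p50 dynamitin, the shoulder subunit whose excess breaks dynactin apart. It was the most abundant, at 239 ± 17.02 FPKM (SD over 18 cultures), and lay above the next gene in 18 of 18 cultures. Actr1b followed at 162 ± 16.8 and Actr1a at 157 ± 10.8; these 2 genes encode the Arp1 isoforms, and they did not keep their order, since Actr1b was above Actr1a in 13 of 18 cultures.

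Dctn1, the gene of p150Glued, had a mean of 123 FPKM and the widest spread (SD 21.5, from 86.2 to 164). It lay below Actr1a in 15 of 18 cultures and above Dctn3 in 12 of 18, so neither neighbour in the order was separated from it throughout. Dctn3, the gene of the small shoulder subunit p24, had 111 ± 10.8 FPKM. The pointed-end genes came last: Dctn4 (p62) at 101 ± 9.11, Dctn5 (p25) at 76.5 ± 6.04, Dctn6 (p27) at 67.7 ± 4.04 and Actr10 (Arp11) at 30.4 ± 2.34 FPKM. Each pointed-end gene was above the next in at least 17 of 18 cultures.

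**Figure D1:**
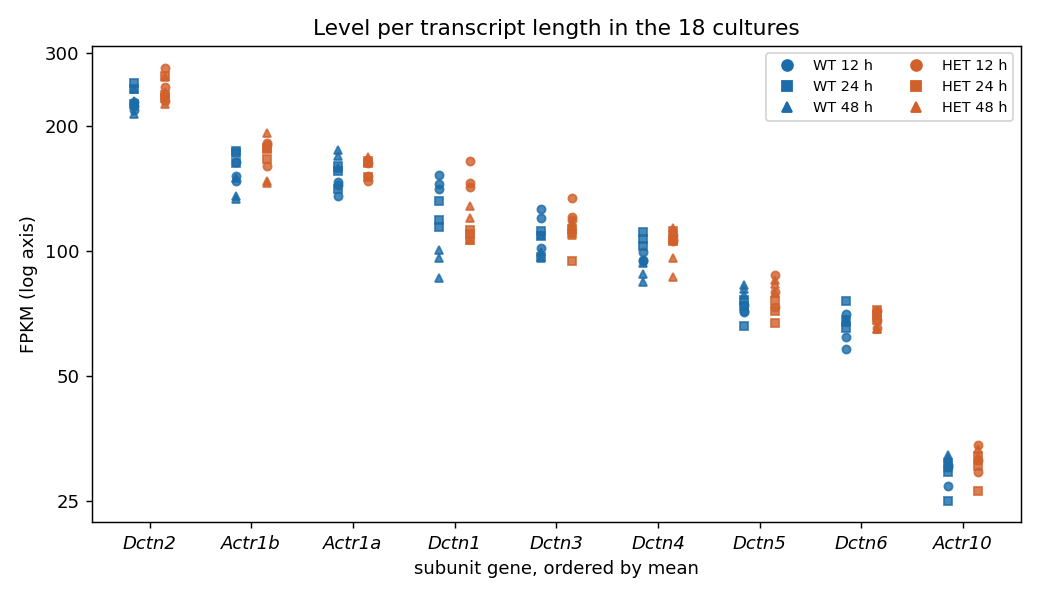
FPKM (vertical log axis) of the 9 dynactin subunit genes (horizontal axis, ordered by mean), 1 point per culture, coloured by genotype with a symbol for each time. Dctn2 lies above all others and Actr10 below all others in each of the 18 cultures, whereas the points of Dctn1 spread from 86.2 to 164 FPKM.

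Summed FPKM gave the level of each structural class. The shoulder genes (Dctn1, Dctn2 and Dctn3) summed to 485 ± 15.4 (SD, n = 3) in WT and 527 ± 42.4 in HET at 12 h, and to 425 ± 25.4 and 474 ± 28.9 at 48 h. The 2 Arp1 genes summed to 296 ± 12.6 and 328 ± 19.2 at 12 h, and to 307 ± 16.4 and 327 ± 24.96 at 48 h. The pointed-end genes (Dctn4, Dctn5, Dctn6 and Actr10) summed to 261 ± 11.8 and 287 ± 14.5 at 12 h, and to 268 ± 6.52 and 281 ± 13.6 at 48 h. The Arp1 and pointed-end sums of 12 and 48 h overlapped in both genotypes, while the shoulder sums of WT at 48 h all lay below those of WT at 12 h. Capping protein, which closes the barbed end of the filament and also caps ordinary actin, gave 204 ± 9.50 FPKM in WT and 211 ± 8.80 in HET at 12 h, and 222 ± 8.06 and 219 ± 15.8 at 48 h (Capza1, Capza2 and Capzb). The remaining values are the authors' normalized counts, which compare cultures and not genes.

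Dctn1 had the highest of its 6 group means at 1.60 times the lowest, against 1.10 to 1.25 times for the other 8 members. The gene lies at chr6:83165920-83200117 (GRCm38, plus strand). Its normalized count in WT was 24452, 26450 and 25241 at 12 h, 20698, 22902 and 19903 at 24 h, and 16767, 14994 and 17452 at 48 h. In HET it was 25304, 28587 and 24833 at 12 h, 19559, 19081 and 18500 at 24 h, and 20923, 18461 and 22303 at 48 h. The WT groups descended from time to time without any overlap, while 2 of the HET cultures of 48 h lay above all those of 24 h and the other just below them. At 24 h every HET culture was below every WT culture, and at 48 h every HET culture was above every WT culture.

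Dctn1 fell with time in culture. In WT it fell by 35.5% from 12 to 48 h (log2 fold change -0.63, SE 0.088, limma adjusted p 6.86e-05), and between 24 and 48 h the log2 fold change was -0.37 (SE 0.088, adjusted p 0.00769). From 12 to 24 h the WT values did not pass the threshold (-0.26, SE 0.088, adjusted p 0.0952), although the groups did not overlap. In HET it fell between 12 and 24 h (-0.46, SE 0.088, adjusted p 0.00302), and the value was 0.11 from 24 to 48 h (SE 0.088, adjusted p 0.558). Over the whole span the HET value was -0.35 (SE 0.088, adjusted p 0.0202), a call that was lost without HET replicate 2 of 12 h (-0.29, adjusted p 0.101), without HET replicate 1 of 48 h (-0.37, adjusted p 0.0913) or without HET replicate 2 of 48 h (-0.28, adjusted p 0.112). It was also lost with quantile normalization (-0.22, adjusted p 0.0729) and in a fit of the compared groups alone (adjusted p 0.112). Without HET replicate 3 of 48 h it held (-0.41, adjusted p 0.00419).

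Between genotypes, Dctn1 was the only member with a non-overlapping difference at 48 h. Its mean (± SD, n = 3) was 25.2% higher in HET than in WT, being 20562 ± 1946 in HET and 16404 ± 1268 in WT. The log2 fold change of 0.32 (SE 0.088, 95% interval 0.14 to 0.51) missed the threshold, with a limma adjusted p of 0.0646 and an unadjusted p of 0.00190. Same-numbered cultures of the 2 genotypes deviated together at 48 h. With the replicate number as a block the limma adjusted p was 0.0228. That block joined same-numbered cultures of every time, and between different times their deviations had a mean r of -0.005 (28 pairs). The fit is therefore not a pairing of the 48 h cultures alone. How many of all genes passed in it is not given here. In the fit without the block, leaving out a culture moved the adjusted p both ways. It was 0.0440 without WT replicate 3 (0.37), 0.0406 without HET replicate 2 (0.40), 0.409 without WT replicate 2 (0.26) and 0.295 without HET replicate 3 (0.26). The authors' deposited table gives it 0.33 on the log2 scale and an adjusted p of 0.0755.

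At 24 h the difference had the opposite sign, with means of 21168 ± 1554 in WT and 19047 ± 531 in HET (SD, n = 3; log2 fold change -0.15, SE 0.088, 95% interval -0.34 to 0.036, limma adjusted p 0.99995). At 12 h the means were 25381 ± 1006 and 26241 ± 2045 (SD, n = 3; 0.046, SE 0.088, adjusted p 0.894), and the sign turned to -0.017 without HET replicate 2. The test of whether the 48 h against 12 h change differed between genotypes gave 0.28 for Dctn1 (SE 0.13, unadjusted p 0.0398, limma adjusted p 0.548). That comparison called no gene (0%; 1534 at an unadjusted p under 0.05).

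Upstream sequence is shown for Dctn1, because it moved most, and then for the Arp1 genes and for the 2 members that followed each other at the pointed end, so that their starts can be compared. Windows are the 250 bases before annotated starts (RefSeq, GRCm38.p6, 5′ to 3′ on the gene's strand), found for 7 of the 9 members. Capitals mark matches, on either strand, to the GC box (GGGCGG), the CCAAT box (CCAAT), the TATA box (TATAAA), the full cyclic AMP element (TGACGTCA), the AP-1 site (TGANTCA), the E-box (CACGTG) or the NRF1 motif; no motif of this list contains another. RefSeq gave Dctn1 2 starts, both inside the longer gene of the GENCODE annotation. The windows at chr6:83179339-83179588 and chr6:83185696-83185945 were as follows.
Dctn1 first start: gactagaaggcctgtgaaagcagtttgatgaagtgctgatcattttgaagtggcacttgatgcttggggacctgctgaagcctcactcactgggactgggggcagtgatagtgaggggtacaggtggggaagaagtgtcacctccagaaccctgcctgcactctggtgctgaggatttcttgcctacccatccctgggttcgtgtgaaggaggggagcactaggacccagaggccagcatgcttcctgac
Dctn1 second start: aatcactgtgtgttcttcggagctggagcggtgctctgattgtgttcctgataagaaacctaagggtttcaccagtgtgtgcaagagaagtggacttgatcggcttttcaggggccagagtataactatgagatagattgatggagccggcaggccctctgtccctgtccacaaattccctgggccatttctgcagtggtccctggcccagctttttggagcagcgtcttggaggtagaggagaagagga
Neither window held any of the 7 motifs. The first had 55.6% G and C with 1 CpG and the second 52.0% with 5 CpG, against a median of 52.4% and 6 CpG over 32851 windows. The counts do not separate transcripts from the 2 starts.

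The 2 other shoulder genes moved less than Dctn1. Their highest group mean was 1.13 (Dctn2) and 1.23 (Dctn3) times the lowest. Dctn2 (chr10:127266368-127281950, plus strand) had means from 17814 ± 391 (WT, 12 h) to 20110 ± 1861 (HET, 12 h). At 12 h its HET cultures, at 18378, 22077 and 19875, were all above the WT cultures, at 17435, 18216 and 17792. This difference, 0.17 on the log2 scale (SE 0.087, limma adjusted p 0.594), did not pass. Dctn3 (chr4:41714798-41723170, minus strand) had means from 4076 ± 279 (WT, 48 h) to 4995 ± 341 (HET, 12 h). Its WT cultures read 5045, 4822 and 4078 at 12 h and 3994, 3847 and 4386 at 48 h, and overlapped through WT replicate 5 of 12 h. The difference was -0.19 (SE 0.097, limma adjusted p 0.125), and without that culture it was -0.28 (adjusted p 0.0330). In HET the 24 h values of Dctn3, 3792, 4420 and 4538, lay below all 12 h values, 4759, 5386 and 4841 (-0.24, SE 0.097, adjusted p 0.0997).

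The Arp1 genes, which supply the filament, went apart with time. Actr1a (chr19:46376811-46395748, minus strand) read 16642, 16403 and 15473 in WT at 12 h, 17756, 16069 and 18215 at 24 h, and 18030, 19297 and 19894 at 48 h. In HET it read 16771, 18573 and 17250, then 18568, 17110 and 18740, then 18666, 19160 and 18631. The 48 h cultures of both genotypes lay above their own 12 h cultures without overlap. In WT Actr1a rose by 17.9% from 12 to 48 h (log2 fold change 0.24, SE 0.073, limma adjusted p 0.0135), a call lost without WT replicate 3 of 48 h (0.21, adjusted p 0.0537). In HET the value was 0.10 (SE 0.073, adjusted p 0.344). A rise of this size depends on the scaling: over all genes the median WT change was 0.11 on the normalized counts and 0.0069 on the second set of deposited columns, where Actr1a gave 0.13 (adjusted p 0.117).

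Actr1b (chr1:36698114-36714422, minus strand) read 13063, 14148 and 12690 in WT at 12 h, 15021, 14050 and 14828 at 24 h, and 11491, 11703 and 12897 at 48 h. In HET it read 13802, 15706 and 15556, then 15153, 14344 and 15250, then 12593, 12708 and 16567. The WT cultures of 48 h were all below those of 24 h. In HET 2 of the 3 cultures of 48 h were low and HET replicate 3, the culture that stood apart on the first component, held the highest value of all 18. From 24 to 48 h Actr1b fell in WT (-0.28, SE 0.097, limma adjusted p 0.0383), but leaving out any of 5 WT cultures (any except WT replicate 3 of 48 h) raised the adjusted p to between 0.0667 and 0.119. In HET the value was -0.11 (SE 0.097, adjusted p 0.595), and without HET replicate 3 it was -0.24 (adjusted p 0.0624).

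The ratio of Actr1b to Actr1a FPKM within each culture does not depend on library scaling. In WT it was 1.04, 1.14 and 1.08 at 12 h, 1.12, 1.15 and 1.075 at 24 h, and 0.841, 0.801 and 0.856 at 48 h. In HET it was 1.09, 1.12 and 1.19, then 1.08, 1.11 and 1.07, then 0.891, 0.876 and 1.17. On FPKM Actr1b thus led in every culture up to 24 h. Actr1a led in 5 of the 6 cultures of 48 h, the exception being HET replicate 3. Which gene led rests on the transcript lengths behind the FPKM: in normalized counts Actr1a lay above Actr1b in every culture. The change of the ratio between cultures does not depend on those lengths. Within genotypes, the 48 h against 12 h difference averaged -0.30 on the log2 scale (WT -0.38, HET -0.22). A two-sided exact permutation test over 400 arrangements of the times within genotypes gave p = 0.015, where the smallest possible is 0.005; without HET replicate 3 of 48 h the difference was -0.37 and the exact p 0.005. Between genotypes the averaged difference was 0.081 (exact permutation p 0.132 over 8000 arrangements), with 0.059 at 12 h, -0.038 at 24 h and 0.22 at 48 h. Over these 2 tests the Benjamini-Hochberg adjusted values were 0.03 for time and 0.132 for genotype.

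**Figure D2:**
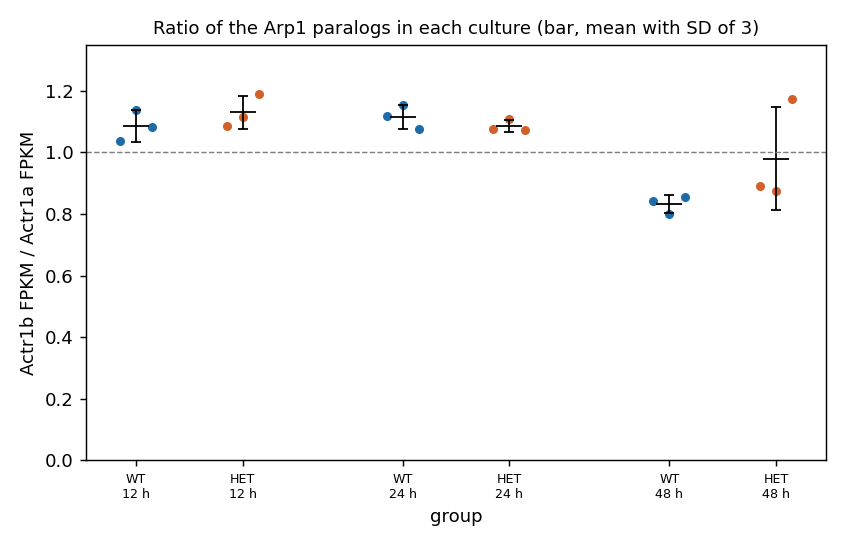
Ratio of Actr1b to Actr1a FPKM (vertical axis, no unit) in each of the 18 cultures, by genotype and time. Points are cultures, the bar and whiskers the mean and SD of 3, and the dashed line marks equal FPKM. The WT cultures of 48 h sit between 0.801 and 0.856, and HET replicate 3 of 48 h sits alone at 1.17.

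The 2 Arp1 genes are close in sequence, so the division of reads between them was checked. Their coding sequences are both 1128 bases long and are identical at 887 positions (78.6%). The longest run they share, in the GENCODE transcripts, starts at position 274 of each coding sequence and is 29 bases long.
Shared run: tacgtctactctaaggaccagctgcagac
No stretch of 50 bases of either transcript occurred in any other gene, although how the authors treated shorter or multiply mapping reads is not given in the sources used here. The windows before the 2 starts, chr19:46395742-46395991 for Actr1a and chr1:36709926-36710175 for Actr1b (both minus strand), were as follows.
Actr1a: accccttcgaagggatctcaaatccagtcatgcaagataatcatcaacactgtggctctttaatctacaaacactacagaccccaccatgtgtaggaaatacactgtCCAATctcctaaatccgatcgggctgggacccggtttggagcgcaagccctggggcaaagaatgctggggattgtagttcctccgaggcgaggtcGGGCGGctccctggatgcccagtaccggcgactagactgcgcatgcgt
Actr1b: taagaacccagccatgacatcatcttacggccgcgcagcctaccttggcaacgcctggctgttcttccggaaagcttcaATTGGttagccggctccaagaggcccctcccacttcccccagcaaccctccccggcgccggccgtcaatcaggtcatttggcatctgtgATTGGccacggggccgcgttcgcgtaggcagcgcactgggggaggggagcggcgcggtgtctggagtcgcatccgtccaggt
The Actr1a window held 1 GC box, in 32.7% of all windows, and 1 CCAAT box, in 33.8% of all windows. The Actr1b window held 2 CCAAT boxes and no GC box. G and C made up 54.4% with 13 CpG for Actr1a and 64.0% with 21 CpG for Actr1b.

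At the pointed end, part of which helps to select cargo, Dctn4 changed. It read 14663, 15305 and 14580 in WT at 12 h, 16504, 15859 and 17111 at 24 h, and 12971, 13541 and 14427 at 48 h. In HET it read 16266, 16878 and 16465, then 16407, 16267 and 17195, then 13332, 14842 and 17523. The WT cultures of 24 h were the highest of their genotype and those of 48 h the lowest, with no overlap. At 48 h HET replicate 3 was again the highest culture of all 18. Dctn4 fell in WT from 24 to 48 h (-0.27, SE 0.085, limma adjusted p 0.0247), a call lost without WT replicate 1 or 5 of 24 h, or without WT replicate 1 or 2 of 48 h (adjusted p from 0.0625 to 0.0923). In HET the value was -0.13 (SE 0.085, adjusted p 0.409), and without HET replicate 3 it was -0.24 (adjusted p 0.0391).

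Dctn5 (chr7:122133041-122149044, plus strand) and Actr10 (chr12:70937857-70964718, plus strand) followed each other. Dctn5 read 4531, 4704 and 4545 in WT at 12 h, 4674, 4189 and 4844 at 24 h, and 5142, 4987 and 5252 at 48 h. In HET it read 4667, 5552 and 5076, then 4256, 4567 and 4807, then 5423, 5288 and 5033. The 48 h cultures were all above the 24 h cultures in both genotypes, by 0.17 in WT (SE 0.079, limma adjusted p 0.122) and 0.21 in HET (SE 0.079, adjusted p 0.157), and neither passed. Actr10, the Arp11 subunit that ends the filament, read 5031, 5098 and 4519 in WT at 12 h, 4892, 4179 and 5135 at 24 h, and 5291, 5046 and 5386 at 48 h. Its HET values were 4900, 5696 and 5248, then 4414, 5066 and 5359, then 5330, 5572 and 5229. No pair of its groups that differed only in time or only in genotype was free of overlap.

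Over the 18 cultures Dctn5 and Actr10 had a Pearson r of 0.890 on the log2 scale, a description of cultures that share their group and library. Their windows before the start, chr7:122132791-122133040 and chr12:70937607-70937856, are shown because the 2 genes followed each other and both held an NRF1 match. That motif was 1 of the 7 looked for, so the pair was picked partly by it. Whether the motif has a part in their levels was not tested. Dctn4 and Actr1b had a higher r (0.945), and no window was found for Dctn4.
Dctn5: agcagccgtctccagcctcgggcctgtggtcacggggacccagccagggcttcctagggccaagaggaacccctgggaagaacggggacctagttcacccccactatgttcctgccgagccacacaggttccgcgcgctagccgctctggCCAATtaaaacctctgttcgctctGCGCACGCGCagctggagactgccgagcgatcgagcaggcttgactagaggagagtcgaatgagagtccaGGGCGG
Actr10: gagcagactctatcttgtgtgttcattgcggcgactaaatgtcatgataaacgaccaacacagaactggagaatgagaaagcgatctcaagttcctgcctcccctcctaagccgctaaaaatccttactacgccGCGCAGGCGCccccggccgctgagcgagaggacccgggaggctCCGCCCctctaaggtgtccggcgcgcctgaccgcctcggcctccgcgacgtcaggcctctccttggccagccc
That motif occurred in 3.74% of all windows and in these 2 of the 8 member windows. The Dctn5 window also held a GC box and a CCAAT box, and the Actr10 window a GC box. Over the 8 member windows, 3 held a GC box, 5 a CCAAT box, 1 the full cyclic AMP element (Dctn3, 1.55% of all windows), and none a TATA box (12.4%), AP-1 (6.75%) or an E-box (6.02%). Dctn6 (chr8:34090420-34108796, minus strand) encodes the p27 subunit that pairs with p25. It had the narrowest range, with means from 2935 ± 295 (WT, 12 h) to 3236 ± 88.5 (HET, 24 h). It overlaps the noncoding gene Gm26768 on the other strand by 337 exonic bases, and since the strand setting of the authors' counting is not given in the sources used here, its values are uncertain. Dctn1, Dctn3, Dctn5 and Actr1b also overlap genes of the other strand, with 0 exonic bases shared.

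**Figure D3:**
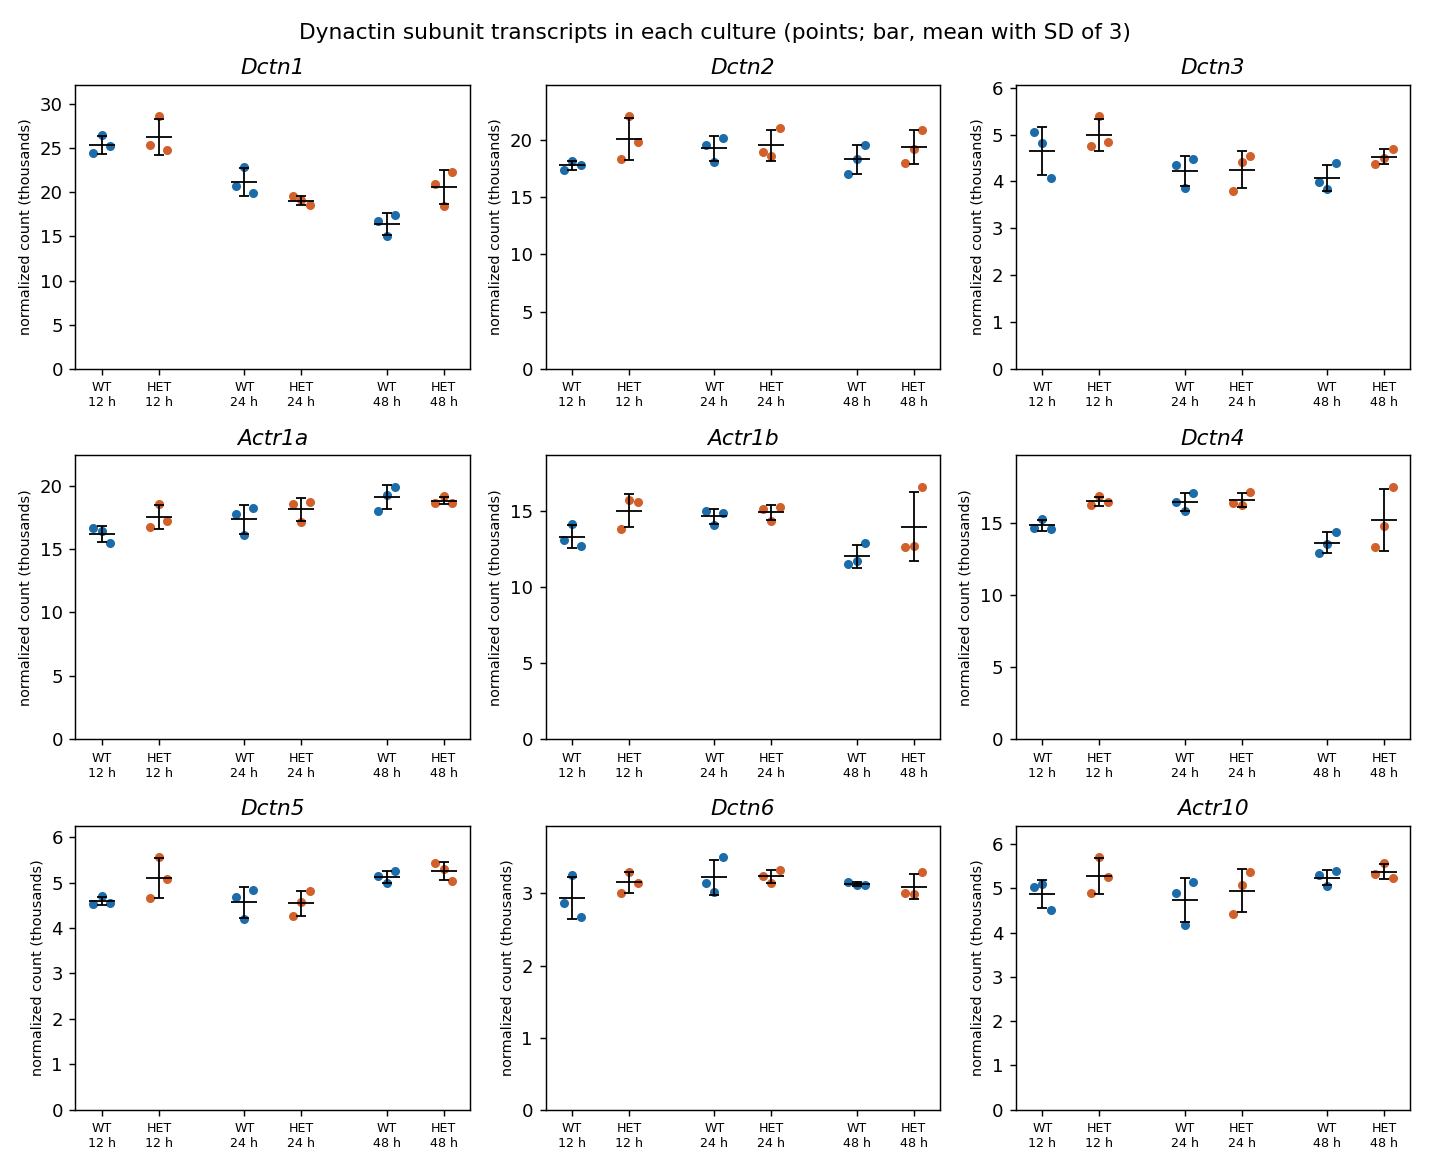
Normalized count in units of 1000 (vertical axes, from 0) of each subunit gene in each culture, by genotype and time; points are cultures and the bar and whiskers the mean and SD of 3. Dctn1 steps down in WT from 25381 to 16404 and stands at 20562 in HET at 48 h. In the other 8 panels the highest group mean is 1.10 to 1.25 times the lowest.

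Taking the 9 members side by side, no member passed the limma threshold between genotypes at any time in the fit without the replicate block. With the block Dctn1 passed at 48 h, as given above. Without it, the targeted gene Dynlrb1 itself passed at 24 h and averaged over the times, but not at 12 h or 48 h. Not passing is therefore weak ground for calling a member unchanged. At 12 h 0 of 9 passed, where 0.00581% of all 17198 genes did (1447 at an unadjusted p under 0.05, 0 of them members). All 9 members had a positive log2 fold change, from 0.046 to 0.17. Their median was 0.12 beside -0.016 over all genes, of which 47.2% were positive. The shift was not particular to dynactin: 8 of 10 neuron markers (median 0.13) and 7 of 9 other dynein-1 chains (0.15) were positive. Of the cargo adaptors 4 of 13 were positive (-0.051), of the glial markers 1 of 8 (-0.16). Of the fibroblast, endothelial and macrophage markers 1 of 8 was positive (-0.35). For Dctn2, Dctn4 and Actr1a the lowest HET culture lay above the highest WT culture, 3 of 9 where 15.1% of all genes did not overlap in either direction and 7.07% were higher. At 24 h 0 of 9 passed (0.00581% of all genes; 198 at an unadjusted p under 0.05), and 7 of 9 were positive with a median of 0.012 beside 0.0092 over all genes; 1 of 9 was positive without WT replicate 2 and 3 of 9 without HET replicate 5. Only Dctn1 did not overlap, being lower, where 5.6% of all genes did not overlap and 2.79% were lower.

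At 48 h 0 of 9 passed, and 0% of all genes did (3782 at an unadjusted p under 0.05, Dctn1 among them). Of the members 7 were positive, with a median of 0.082 beside -0.034 over all genes. Dctn6 (-0.017) and Actr1a (-0.018) were the exceptions. On the second set of deposited columns both were positive (0.010 and 0.0089), making 9 of 9. Those columns raised all 9 values by the same amount, a change of scale. The non-overlap of Dctn1 compares with 24% of all genes in either direction and 9.57% higher. Averaged over the 3 times, 0 of 9 passed (0.0174% of all genes; 2315 at an unadjusted p under 0.05). The 9 values ran from 0.033 to 0.14 with a median of 0.073 beside -0.021 over all genes, 43.9% of which were positive. The medians of the neuron markers and the other dynein-1 chains were 0.054 and 0.084 here, and 0.11 and 0.13 at 48 h. Those of the glial and the fibroblast, endothelial and macrophage markers were -0.064 and -0.11 here, and 0.035 and -0.026 at 48 h. Actr1b (0.14, SE 0.056, adjusted p 0.325) and Dctn4 (0.11, SE 0.049, adjusted p 0.362) had the lowest p; without HET replicate 3 of 48 h these were 0.092 and 0.071. The 9 genes are not independent of each other, and genotype differences of up to 0.41 on the log2 scale at 48 h stay within the 95% intervals of members other than Dctn1.

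**Figure D4:**
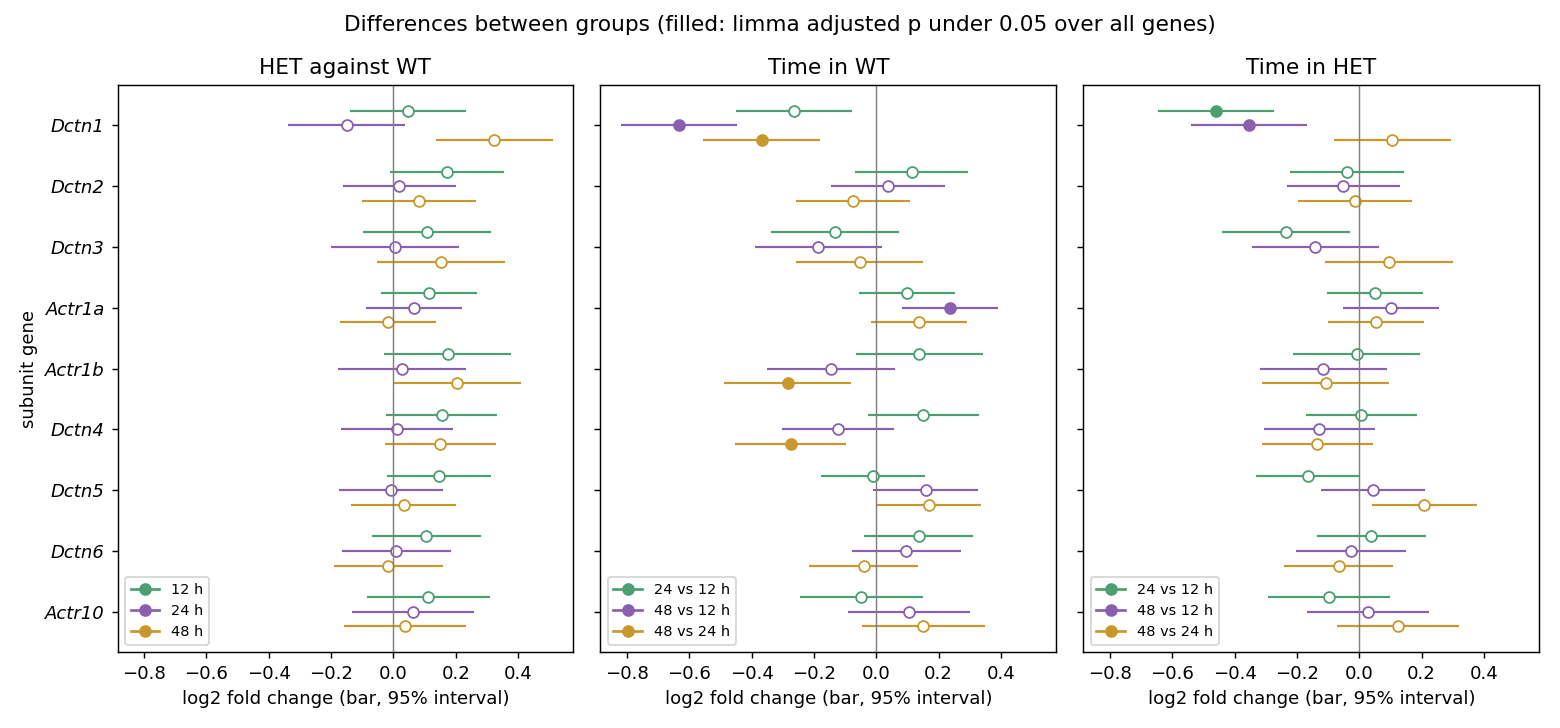
Log2 fold change (horizontal axes) with its 95% interval for each subunit gene, for HET against WT by time and for the time comparisons within WT and within HET; filled points passed a limma adjusted p of 0.05 over all genes. In this fit, without the replicate block, no genotype point is filled. Dctn1 has the filled points farthest from 0, at -0.63 in WT and -0.46 in HET.

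Some members passed between times. From 12 to 24 h in WT 0 of 9 passed, beside 3.62% of all genes (3688 at an unadjusted p under 0.05), and 2 of 9 did not overlap (Dctn1 lower, Dctn4 higher) beside 26.9%. From 12 to 48 h 2 of 9 passed, Actr1a up and Dctn1 down, beside 47.1% of all genes (30% higher, 17.1% lower); the median was 0.038 beside 0.11, and 4 of 9 did not overlap (Dctn1 and Dctn4 lower, Dctn5 and Actr1a higher) beside 55.3%. On the second set of deposited columns all 9 values were lower by the same amount, and 4 passed there, all lower. They were Dctn1 (-0.74), Dctn3 (-0.29, adjusted p 0.00985), Dctn4 (-0.23, adjusted p 0.0409) and Actr1b (-0.25, adjusted p 0.0494). The 47.1% of all genes belongs to the normalized counts and not to those columns. From 24 to 48 h 3 of 9 passed, all lower, beside 27.7% of all genes in either direction and 10.3% lower; the median was -0.054 beside 0.053, and 4 of 9 did not overlap (the same 3 and, higher, Dctn5) beside 46%.

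In HET 1 of 9 passed from 12 to 24 h, Dctn1, beside 18.9% of all genes (5.76% lower), and 2 of 9 did not overlap (Dctn1 and Dctn3, both lower) beside 38.4%. On the second set of columns Dctn3 (-0.29, adjusted p 0.0247) and Dctn5 (-0.22, adjusted p 0.0345) passed as well. All 9 values were again lower there by the same amount. The 18.9% is that of the normalized counts. From 12 to 48 h 1 of 9 passed, again Dctn1, beside 14.2% (3.62% lower), and 0 of 9 from 24 to 48 h, beside 2.49% (3280 at an unadjusted p under 0.05). Groups of 3 members did not overlap between 12 and 48 h (Dctn1 and Dctn3 lower, Actr1a higher) beside 29.7%, and 1 (Dctn5, higher) between 24 and 48 h beside 18.3%. Without HET replicate 3 of 48 h the counts of members passing were 3 (Dctn1, Dctn4 at -0.23 and Actr1b at -0.25) and 1 (Dctn4 at -0.24). The shares of all genes above are those of the fit with every culture. The medians of the 9 members in HET were -0.038, -0.051 and 0.054 for the 3 intervals in that order, beside 0.077, 0.10 and 0.021 over all genes.

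The members did not move as a block over the 18 cultures. Of their 36 pairs 25 had a positive Pearson r, with a median of 0.403 and a range from -0.629 (Dctn1 with Actr1a) to 0.945 (Dctn4 with Actr1b). Among 12624 genes with a mean FPKM of at least 1, those most like the mean profile of the 9 members were Akr1a1 (r 0.941), an aldehyde reductase, Klc1 (0.932), a light chain of kinesin-1, and Tmem50a (0.931). Most like Dctn1 were Parm1 (0.973), Gnao1 (0.972), a G protein subunit abundant in neurons, and Dpysl2 (0.971), the axon growth protein CRMP2. All these values are over 18 cultures that share the 6 groups.

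Other genes of the pathway were read from lists by role. In the fit without the replicate block, no listed gene passed between genotypes at any time or averaged, except Dynlrb1 at 24 h and averaged. From 12 to 48 h in WT, 30% of all genes passed higher and 17.1% lower. In HET 14.2% of all genes passed in either direction over that span, and 3.62% lower. Of actin and the capping protein subunits, 2 of 4 rose in WT from 12 to 48 h, Actb (0.33, adjusted p 0.0240) and Capza1 (0.47, adjusted p 8.98e-04), and 0 of 4 in HET; Actb is the general beta-actin of the cell, which the dynactin filament also contains. Of the other dynein-1 chains 1 of 9 rose, the light chain Dynll1 (0.56), and 2 fell, led by the intermediate chain Dync1i1 that binds p150Glued (-0.62); in HET only Dync1i1 fell (-0.46). Of the LIS1 and NDE regulators Nde1 rose (0.74) and Pafah1b1, the gene of LIS1, fell (-0.32) in WT, and 0 of 3 passed in HET.

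Of the activating adaptors, which join cargo to dynein and dynactin, 3 of 13 rose and 2 fell in WT, led by Spdl1 (1.65) and Trak1 (-0.79), and in HET 2 rose, Spdl1 (1.08) and Hook2 (0.50). Spdl1 serves mitotic kinetochores, and the dividing-cell markers rose beside it in WT (4 of 4) and in HET (3 of 4). Of the plus-end proteins that bind the p150Glued arm, 3 of 5 fell in WT, among them Mapre3 (-0.82) and Mapre2 (-0.54), which encode EB proteins, and 0 of 5 passed in HET. That a gene passed in WT and not in HET does not show a difference between them: no gene passed the test of that difference. Of the neuron markers 3 of 10 rose and 4 fell in WT over the same span. Of the glial markers 1 of 8 rose and 4 fell, and of the fibroblast, endothelial and macrophage markers 3 of 8 rose and 2 fell. Beside these counts stand 30% of all genes higher and 17.1% lower in WT. Counts near those shares are not read as results about a list.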

How the data were processed

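Gene levels came from 1 deposited table of RNA sequencing of the 18 cultures. The values used were the authors' normalized counts, a signal with no whole number and no 0 whose column totals ran from 41509705 to 41509874, so depth is unknown and no counting interval was given. The authors also deposited a second set of signal columns (totals from 39465712 to 44213485) whose adjustment the headers do not name. FPKM values, log2 fold changes and adjusted p-values of the authors are also named per the file headers; 24 columns of per-sample log ratios were not used. CASAVA 1.8.2, edgeR and build mm10 are named, without their roles, per the submitters' processing notes; aligner, counter, annotation and strand setting are not given in the sources used here. The deposited logarithms spanned 15 of 17 possible dimensions, so 2 directions among samples had been removed.

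As these are not raw counts, limma 3.58.1 (R 4.3.3) was used in place of the edgeR test that the design named for counts: log2(normalized count + 1), a mean of at least 1 (0 genes removed), 1 coefficient per group over all 18 samples, eBayes with a trend (12 residual and 4.97 prior degrees of freedom), Benjamini-Hochberg adjustment over 17198 genes and a threshold of 0.05. The fold changes are on that scale. The fit was tested on simulated data. The ratio of Actr1b to Actr1a was tested by exact permutation. Gene positions are from GENCODE M21 (GRCm38) and upstream windows from RefSeq (GRCm38.p6). The members and lists were chosen with earlier results of these data known. All 9 members are named; of each other list at most 2 genes with the largest change past the threshold are named per comparison, and the 3 genes of most similar profile. The comparison of the genotype difference at 24 and 48 h was added after the values were seen.

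Titles gave the groups and the replicate numbers, which were 1, 2 and 5 except at 48 h (1, 2 and 3). Correlating deviations from group means over genes, same-numbered WT and HET cultures gave r of 0.32, 0.21 and 0.46 at 48 h, all over 0.1, so the numbers were taken to pair cultures there. At 12 h (0.19, 0.032 and 0.16) and 24 h (0.11, -0.21 and 0.26) they were not. Alternatives were other pseudocounts (0.1 and 10), filters, the second signal columns, quantile normalization, the replicate block, covariates for the missing directions, the compared groups alone, and leaving out each culture. The block joined same-numbered cultures of every time, not only those of 48 h.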

Additional observations from a re-analysis of the deposited data

Results flagged for a closer look

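The HET against WT difference of Dctn1 had opposite signs at 24 and 48 h, with no overlap between the genotypes at either time. At 24 h the HET cultures, at 19559, 19081 and 18500 normalized counts, were all below the WT cultures, at 20698, 22902 and 19903, and at 48 h the HET cultures, at 20923, 18461 and 22303, were all above the WT cultures, at 16767, 14994 and 17452. The change of the difference between the 2 times was 0.47 on the log2 scale (SE 0.13, 95% interval 0.21 to 0.74). Its unadjusted p in limma was 0.00145 and its adjusted p over all genes 0.180, so it did not pass; 0 genes passed (0%), and 2749 had an unadjusted p under 0.05. With the replicate number as a block the adjusted p was 0.0440 and 465 genes passed, but the numbers did not meet the pairing check at 24 h. Leaving out any 1 of the 12 cultures gave values from 0.41 to 0.55 and adjusted p from 0.0904 to 0.523. The other 8 members had values from -0.084 to 0.18.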

How the results depend on the processing

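Counts of members called moved as follows. The shares of all genes passing under each setting are not set beside them, so the moves are not read as results about the members. For HET against WT at 48 h the count of 0 became 1 with the replicate block, alone or with covariates for the missing directions, the call being Dctn1. For 48 h against 12 h in WT the count of 2 became 4 on the second signal columns and 5 with the block and those covariates. For 48 h against 24 h in WT the count of 3 became 1 with quantile normalization and 4 with the block and those covariates, and was 3 under the other settings over all cultures. It became 3 for 24 h against 12 h in HET on the second signal columns (1 otherwise). For 48 h against 12 h in HET the count of 1 became 0 with quantile normalization and with the compared groups alone. The added comparison of 48 h against 24 h between genotypes became 1 with the block (0 otherwise). The replicate block changed no other count by over 1.5 times; for 48 h against 12 h in WT it gave 3. At 48 h all 6 cultures correlated best with their own number, at 12 h 5 of 6 and at 24 h 3 of 6. Over same-numbered pairs the Actr1b to Actr1a ratio differed by -0.36 between 48 and 12 h (4 pairs, exact p 0.125, the smallest possible).

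Leaving out 1 culture, the counts ran from 0 to 1 for HET against WT at 48 h, from 1 to 3 for both 48 h comparisons in WT, from 0 to 3 for 48 h against 12 h in HET and from 0 to 1 for 48 h against 24 h in HET; the other counts did not move. The signs of uncalled values near 0 turned, among them Dctn1 at 12 h between genotypes (-0.017 without HET replicate 2, up to 0.084 without others), and in WT from 12 to 48 h Dctn2 (-0.068 on the second columns, -0.045 with block and covariates, -0.010 without WT replicate 3 of 48 h, up to 0.088 without others), Dctn6 (-0.010) and Actr10 (-0.0028), both on the second columns. The causes were not tested. DESeq2 was listed as an alternative and not run, since the values are not counts. The number of cultures limits precision: at each time the 95% interval of every member's genotype difference included 0, except that of Dctn1 at 48 h.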
